A study of Homo sapiens with 9 samples.

Results

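Long non-coding RNAs (lncRNAs) are transcripts that are not translated into protein, and many of them are made from promoters of their own that lie away from any protein-coding gene. An active promoter is usually depleted of nucleosomes, and ATAC-seq, which reads where a transposase can enter chromatin, records it as a peak. INO80 is the ATPase of the INO80 complex, which moves nucleosomes and exchanges histone variants and is known to act at promoters. The regions described here are the accessible lncRNA promoters of HepG2, a human liver cancer cell line, under a control siRNA or siRNAs against INO80. The merged peaks of all lists on chromosomes 1 to 22 gave 109960 regions. A region was taken as a lncRNA promoter when it overlapped the 1 kb on either side of an annotated lncRNA transcript start and overlapped no such window of a protein-coding gene, which left 3569 regions.

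HepG2 cells were transfected with 50 nM of siRNA and collected at 72 h. They received NTG (the control siRNA), siINO80#1 or siINO80#2, the last 2 being different siRNAs against the INO80 transcript. There were 3 replicates of each, from separate transfections, which gives 9 samples, and all samples came from the same cell line in the same medium. The deposited data hold 1 peak list per siRNA, so no value per replicate could be used and differences between lists have no replicate error to be held against. Intervals given below are 95% Wilson intervals. They cover counting error only, since reads without molecular identifiers and neighbouring regions are not independent. How far each siRNA lowered INO80 is not seen in these lists.

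The lists held 69730 peaks for NTG, 69333 for siINO80#1 and 53113 for siINO80#2. Read numbers recovered from the peak values were 1.43 and 1.44 times that of NTG for siINO80#1 and siINO80#2, under the formulas assumed for the peak caller. The shorter siINO80#2 list was therefore not the list with the fewest reads by this estimate. Reads at summits are given below as solved, unscaled for this difference unless stated. At the summits of the lncRNA promoters a median of 25 reads was found in NTG, 30 in siINO80#1 and 30 in siINO80#2, and the lowest were 12, 14 and 15. Of 12 hepatocyte genes, 11, 11 and 9 had a promoter peak in NTG, siINO80#1 and siINO80#2, and the siINO80#2 list lacked peaks at ALB and AFP. Of 11 genes of other lineages, 2, 3 and 1 had one, with COL1A2 in every list.

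Sequences of 200 bp at the strongest summit are shown for 9 regions that carry the comparisons below. They were read from GRCh37, are written 5′ to 3′ on the strand of the lncRNA, and have matches to the searched motifs in capitals. DANCR and MALAT1 were accessible in all 3 lists and hold the SP/KLF motif GGGCGG, a GC box, on either strand. MIR34AHG holds it too but had a peak in NTG alone. DANCR is chr4:53578387-53578586 (plus strand), MALAT1 is chr11:65265013-65265212 (plus strand) and MIR34AHG is chr1:9242352-9242551 (minus strand).
DANCR: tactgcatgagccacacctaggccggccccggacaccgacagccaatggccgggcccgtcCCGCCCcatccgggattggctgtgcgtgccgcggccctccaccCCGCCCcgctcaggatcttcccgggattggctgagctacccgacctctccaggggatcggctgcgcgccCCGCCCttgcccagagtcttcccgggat
MALAT1: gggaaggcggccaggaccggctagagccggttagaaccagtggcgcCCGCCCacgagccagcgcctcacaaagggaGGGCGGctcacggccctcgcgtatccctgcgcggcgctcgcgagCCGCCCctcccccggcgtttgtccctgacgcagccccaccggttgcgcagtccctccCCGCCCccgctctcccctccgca
MIR34AHG: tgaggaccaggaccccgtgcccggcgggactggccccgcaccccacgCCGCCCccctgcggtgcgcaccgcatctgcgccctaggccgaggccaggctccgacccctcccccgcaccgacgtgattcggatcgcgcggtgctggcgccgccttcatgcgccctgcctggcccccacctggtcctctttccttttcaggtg

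The next 4 hold the AP-1 motif, written TGAGTCA or TGACTCA on opposite strands, the site of JUN and FOS dimers. LUCAT1 (chr5:90610192-90610391, minus strand) had a peak in all 3 lists. LINC00923 (chr15:98235171-98235370, minus strand) and POT1-AS1 (chr7:124632936-124633135, plus strand) had a peak with both INO80 siRNAs and none with NTG, and LINC01018 (chr5:6585399-6585598, plus strand) had one in siINO80#2 alone.
LUCAT1: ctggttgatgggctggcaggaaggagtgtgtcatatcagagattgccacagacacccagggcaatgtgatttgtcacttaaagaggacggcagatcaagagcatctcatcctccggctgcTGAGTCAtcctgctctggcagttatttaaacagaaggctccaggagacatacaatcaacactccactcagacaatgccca
LINC00923: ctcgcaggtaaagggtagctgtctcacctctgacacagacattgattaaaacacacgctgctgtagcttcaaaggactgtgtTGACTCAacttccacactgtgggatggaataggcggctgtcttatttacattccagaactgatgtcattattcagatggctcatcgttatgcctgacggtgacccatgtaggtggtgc
POT1-AS1: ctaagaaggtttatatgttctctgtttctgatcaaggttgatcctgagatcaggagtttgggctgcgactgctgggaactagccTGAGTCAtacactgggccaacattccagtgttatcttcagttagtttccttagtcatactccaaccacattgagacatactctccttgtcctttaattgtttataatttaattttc
LINC01018: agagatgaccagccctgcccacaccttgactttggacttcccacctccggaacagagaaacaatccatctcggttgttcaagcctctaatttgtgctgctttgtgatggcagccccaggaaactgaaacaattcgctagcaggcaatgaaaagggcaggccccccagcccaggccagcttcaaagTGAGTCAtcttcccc

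ENSG00000261729 (chr1:185623819-185624018, plus strand), with peaks in the 2 siINO80 lists but none in NTG, holds the FOXA motif TGTTTAC. ENSG00000249061 (chr5:86264146-86264345, plus strand), one of the strongest NTG-alone regions, held none of the 8 motifs searched. Its summit lay 1108 bp downstream of the nearest lncRNA start, outside the 1 kb window.
ENSG00000261729: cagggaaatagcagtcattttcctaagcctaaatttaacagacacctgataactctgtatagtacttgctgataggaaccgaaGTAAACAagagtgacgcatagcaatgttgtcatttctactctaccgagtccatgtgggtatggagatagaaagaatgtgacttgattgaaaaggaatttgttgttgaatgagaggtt
ENSG00000249061: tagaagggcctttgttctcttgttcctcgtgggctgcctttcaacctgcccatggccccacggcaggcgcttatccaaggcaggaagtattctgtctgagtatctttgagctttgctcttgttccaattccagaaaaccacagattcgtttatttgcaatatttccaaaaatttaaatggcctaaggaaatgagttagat

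The first question was in which lists a lncRNA promoter was accessible. All 3 lists shared 1460 of the 3569 lncRNA promoters (40.9%, 39.3 to 42.5), against 26.7% of all regions. A further 688 had a peak in NTG alone (19.3%, 18.0 to 20.6), against 24.5% of all regions. Thus most lncRNA promoters were not found under every siRNA, although they were shared more often than regions at large. Peaks in both siINO80 lists without one in NTG were found at 163 (4.57%, 3.93 to 5.30), against 5.18% of all regions, which is close to that background.

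The remaining regions were split among the other combinations. There were 572 in siINO80#1 alone (16.0%, 21.6% of all regions) and 276 in siINO80#2 alone (7.73%, 11.8% of all regions). NTG with siINO80#1 held 307 (8.60%, 7.6% of all regions) and NTG with siINO80#2 held 103 (2.89%, 2.62% of all regions). The classes with a peak in a single list were thus less frequent among lncRNA promoters than among all regions, in each of the 3 lists.

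Protein-coding promoters were the closest comparison. Of their 16837 regions, 59.6% were in all 3 lists, 12.5% in NTG alone and 2.60% in both siINO80 lists without NTG. The lncRNA promoters differed from them by −18.7 percentage points (−20.4 to −16.9) in all 3 lists and by 6.73 points (5.37 to 8.14) in NTG alone. Of the 89554 regions outside any such window, 19.9% were in all 3 lists, and lncRNA promoters exceeded them by 21.0 points (19.3 to 22.6). The lncRNA promoters therefore lay between protein-coding promoters and the rest of the accessible genome. This order was kept at a −log10 q of at least 5, with 51.3%, 65.1% and 34.8%, and at equal list size, with 44.3%, 63.8% and 22.5%.

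**Figure D1:**
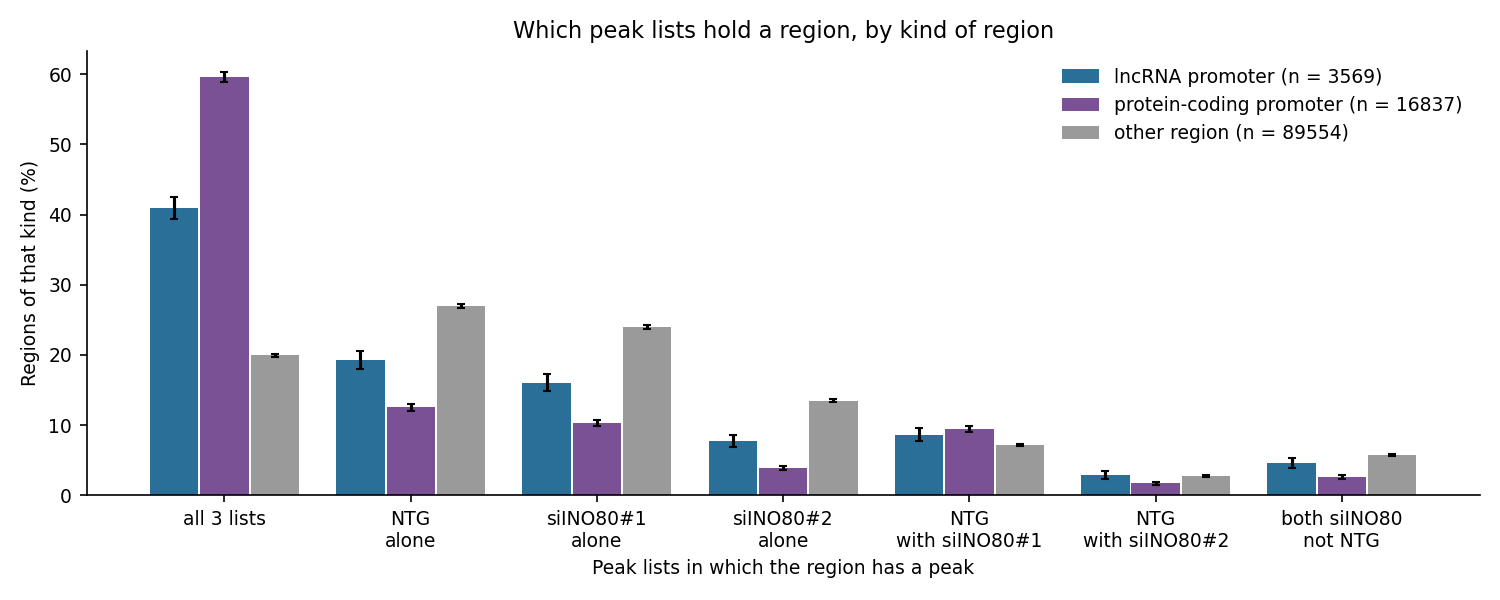
Share of regions of each kind (y axis, %) by the peak lists that hold them (x axis), for lncRNA promoters, protein-coding promoters and other regions. Bars are shares and error bars 95% Wilson intervals; the blue bar for all 3 lists stands at 40.9%, between 59.6% for protein-coding promoters and 19.9% for other regions.

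A promoter with both a lncRNA and a protein-coding start was counted as protein-coding. There were 3167 such regions, where a lncRNA often starts beside a gene on the other strand. Of these, 72.6% (71.0 to 74.1) were in all 3 lists and 6.47% in NTG alone. Starts of lncRNAs at shared promoters were thus found in every list more often than those on their own. Across the annotation, 3034 of 18229 lncRNA genes (16.6%) had a lncRNA promoter region of their own, 2644 (14.5%) only a shared one, and 12551 (68.9%) neither.

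The next comparison asked how many of the NTG regions were found again with each siRNA. A peak was present in NTG at 2558 lncRNA promoters. The siINO80#1 list had a peak at 1767 of them (69.1%, 67.3 to 70.8; 55.9% of all NTG regions). The siINO80#2 list had one at 1563 (61.1%, 59.2 to 63.0; 47.8% of all NTG regions). The same shares were 82.9% and 73.6% for protein-coding promoters and 47.8% and 40.0% for other regions. The 2 siINO80 lists share NTG as their comparison, and the overlap between them was not free of losses either: siINO80#2 had a peak at 64.9% of the siINO80#1 lncRNA promoters, and siINO80#1 at 81.1% of those of siINO80#2.

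These shares differed most with the strength of the NTG peak. Strength was taken as fold enrichment, the ratio of reads at the summit to the local background of the same list, and the NTG peaks were cut into quintiles. In the weakest quintile, 29.6% of lncRNA promoters had a siINO80#1 peak and 22.2% a siINO80#2 peak. In the middle quintile the shares were 61.9% and 48.2%, and in the strongest 98.2% and 94.7%. Nearly all of the strongest lncRNA promoters were thus found again, and most of the weakest were not. Protein-coding promoters were higher in the weakest quintile with siINO80#1, at 44.2%, whereas with siINO80#2 they stood at 25.1%, an interval that overlaps that of the lncRNA promoters.

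**Figure D2:**
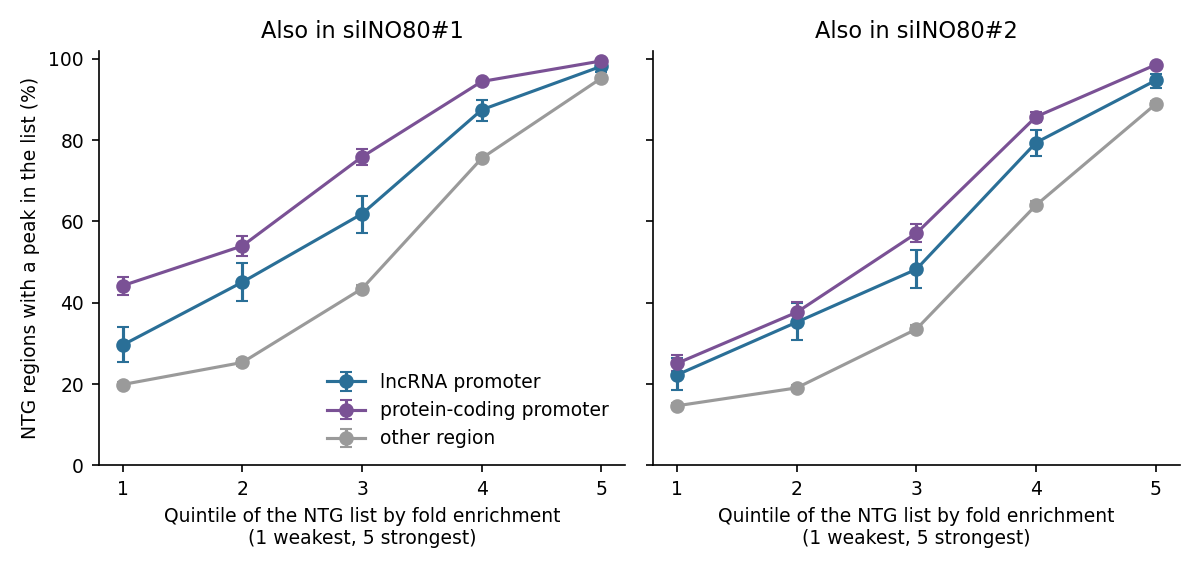
Share of NTG regions that also had a peak in the siINO80#1 list (left) or the siINO80#2 list (right) (y axis, %) by quintile of the NTG list (x axis, 1 weakest to 5 strongest fold enrichment), with 95% Wilson intervals. The lncRNA promoters (blue) climb from 29.6% to 98.2% with siINO80#1 and from 22.2% to 94.7% with siINO80#2.

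The classes differed in strength and width in the same way. The median NTG fold enrichment was 4.98 for lncRNA promoters in all 3 lists and 2.90 for those in NTG alone, and the median width was 786 bp and 216 bp. Those in both siINO80 lists and not NTG had a median fold enrichment of 3.04 in siINO80#1 and 2.88 in siINO80#2, with a width of 410 bp. Regions found in a single list were therefore mostly narrow and weak. A merged region spans the peaks of every list that holds it, so its width is not independent of the number of lists. The same medians over all regions in NTG alone were 2.90 and 214 bp, so in this class lncRNA promoters did not stand out.

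Much of the gap to protein-coding promoters went with base composition. CpG islands, which are rich in CG dinucleotides and largely unmethylated, cover most housekeeping promoters. A summit was called CpG-rich when the 200 bp around it had at least 55% GC and an observed-to-expected CpG ratio of at least 0.6. This held for 642 lncRNA promoters (18.0%, 16.8 to 19.3), 56.4% of protein-coding promoters and 1.57% of other regions. Of CpG-rich lncRNA promoters 67.6% were in all 3 lists, and of the others 35.1%, a difference of 32.5 points (28.4 to 36.5).

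Within each composition the 2 kinds of promoter came closer. Among CpG-rich summits the share in all 3 lists of lncRNA minus protein-coding promoters was −7.96 points (−11.8 to −4.35). Among the remaining summits it was −3.87 points (−5.91 to −1.80). Both differences are smaller than the one without the split. For NTG alone, the shares at summits that were not CpG-rich were 21.6% and 21.8%, with a difference between −1.94 and 1.59 points. At CpG-rich summits they were 8.57% and 5.38%, and lncRNA promoters were higher by 3.19 points (1.20 to 5.64).

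CpG content and strength were then combined. In the weakest NTG quintile, 58.6% of 58 CpG-rich lncRNA promoters and 25.1% of 378 others had a siINO80#1 peak. With siINO80#2 the shares were 39.7% and 19.6%. In the strongest quintile all 4 shares lay between 93.4% and 99.2%. CpG-rich lncRNA promoters were therefore found again more often at the same low rank, and the gap closed where the peaks were strong.

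**Figure D3:**
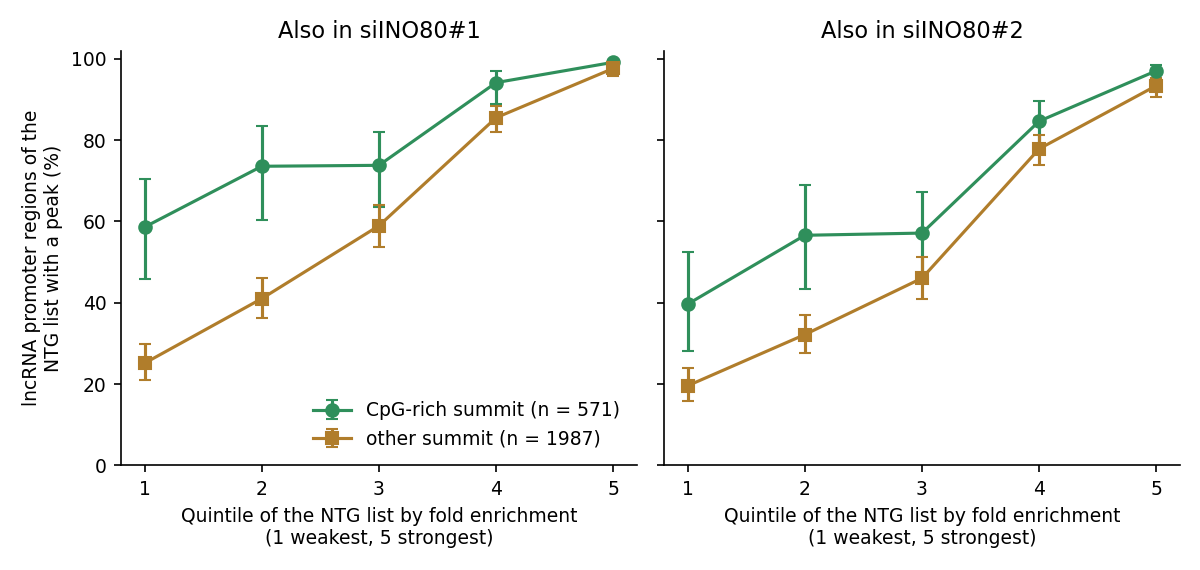
Share of NTG lncRNA promoters with a peak in the siINO80#1 (left) or siINO80#2 (right) list (y axis, %) by quintile of NTG fold enrichment (x axis), split into CpG-rich summits (green) and others (brown), with 95% Wilson intervals. The gap is widest in the 2 weakest quintiles (58.6% against 25.1% in the first, siINO80#1) and nearly closes in the strongest (99.2% against 97.6%).

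Position relative to the start was examined next, to see how far the label of promoter fits the regions. An annotated lncRNA start lay inside 1603 of the 3569 regions (44.9%, 43.3 to 46.6). For regions in all 3 lists this share was 69.0%, for those in NTG alone 22.1% and for those in both siINO80 lists and not NTG 39.9%. A region that lies beside a start but does not contain it was thus typical of the single-list classes. Regions in more lists span more merged peaks, so this share is not independent of the number of lists. The median distance from summit to start was 279 bp over all lncRNA promoters, 173.5 bp for those in all 3 lists, 389.5 bp for NTG alone and 350 bp for both siINO80 lists.

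The share in all 3 lists followed this distance. It was 55.3% of 999 regions with a summit within 100 bp of the start, 40.7% of 851 between 100 and 300 bp and 29.1% of 1417 between 300 and 1000 bp. The first and the last of these differed by 26.1 points (22.2 to 29.9). A further 302 regions were wide enough to reach the window with a summit over 1000 bp away, and 49.3% of them were in all 3 lists. At the edge of the rule, 27.8% of the 126 regions that reached only the outermost 100 bp of the window were in all 3 lists, and 17.8% of the 157 regions with their nearest edge in the 100 bp just outside it.

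**Figure D4:**
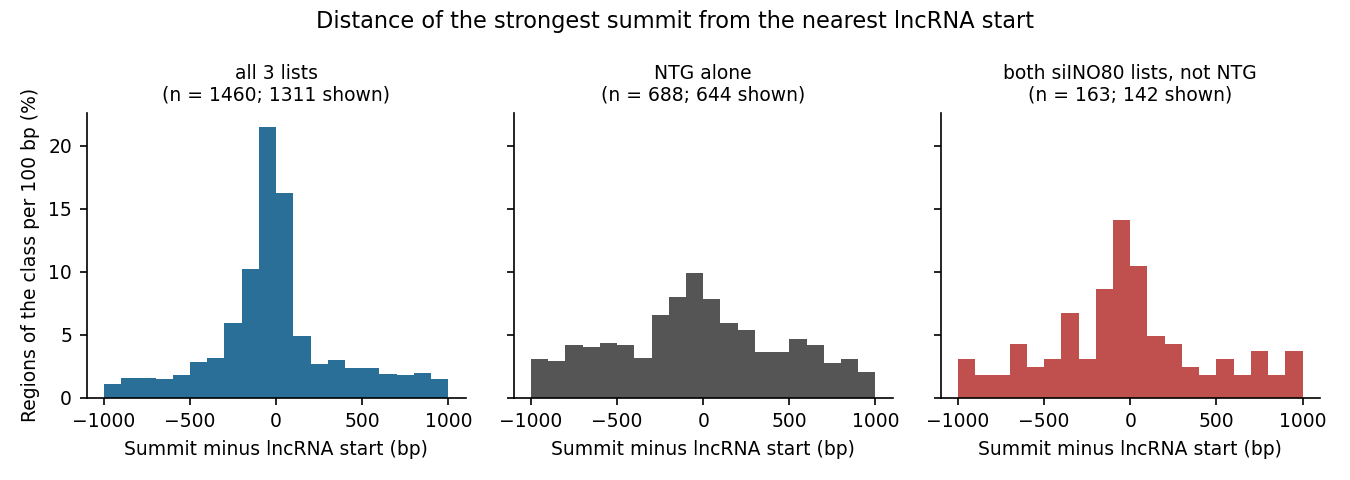
Distance of the strongest summit from the nearest lncRNA start (x axis, bp; negative values are upstream) as the percentage of regions of the class per 100 bp (y axis), for lncRNA promoters in all 3 lists, in NTG alone and in both siINO80 lists but not NTG. The peak around 0 is tallest for all 3 lists, where 37.8% of summits lie within 100 bp, and flattest for NTG alone, with 17.9%.

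Most lncRNA promoters lay away from genes. Of the 3569, 2809 (78.7%) had their summit outside protein-coding genes, 660 (18.5%) in an intron and 100 (2.80%) in an exon, and the median gap to a protein-coding start was 38630 bp. The summit was upstream of the lncRNA start at 1924 (53.9%). For 2020 (56.6%) the lncRNA has only an identifier as its name. Chromosome 2 held 519 lncRNA promoters (14.5%) but 19.6% of all regions, and 34.3% of those 519 were in all 3 lists. At 164 regions (4.60%) the summit sequence had 2 or more near-identical places in the genome, so that some reads there may not be assignable to 1 place. How reads mapped there was not examined.

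Among regions in all 3 lists the rank within each list could be compared. The percentile of a region's strongest peak in siINO80#1 minus that in NTG had a median of −0.60 points, and in siINO80#2 minus NTG of −5.42 points. In siINO80#1, 314 of 1460 lncRNA promoters (21.5%) ranked over 10 points higher than in NTG, against 22.4% of all regions, and 333 (22.8%) ranked over 10 points lower, against 21.3%. In siINO80#2, 217 (14.9%) ranked higher by that margin, against 16.3%, and 549 (37.6%) lower, against 36.3%. These shares are near those of all regions, whose medians were −0.002 and −3.92 points, so no shift particular to lncRNA promoters was seen against that background. Protein-coding promoters ranked over 10 points higher less often, at 14.9% in siINO80#1 and 7.92% in siINO80#2. They ranked lower by that margin at 17.4% and 35.5%, with medians of −0.21 and −4.24 points. Percentiles rest on each list's own length, and the siINO80#2 list is the shortest.

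As a description across regions, the Spearman correlation of fold enrichment was 0.77 between NTG and siINO80#1 (1767 lncRNA promoters), 0.74 between NTG and siINO80#2 (1563) and 0.82 between the siINO80 lists (1623). For protein-coding promoters the values were 0.87, 0.84 and 0.89. Points of 1 list share its library and depth.

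The strongest lncRNA promoters held their rank in every list. PURPL, a lncRNA known to be induced by p53, had a fold enrichment of 16.3 (134 reads at the summit) in NTG, 13.8 (147 reads) in siINO80#1 and 13.8 (126 reads) in siINO80#2. Scaled for the estimated read number of each list, its reads were 134, 103 and 87.7. Its region, chr5:27472053-27474001, has its summit 2 bp downstream of the start and ranked at the 99.9, 99.7 and 99.9 percentile of the 3 lists. LINC00680 stood at 19.3, 19.2 and 17.0, but its sequence has 3 places in the genome. The same holds for GUSBP1 (13.9, 18.8 and 14.4), which also has 3 places, and for ENSG00000224905 and ENSG00000291149, each with 2. ENSG00000290683, with a single place, stood at 14.3, 13.6 and 11.9. That all of these were among the strongest peaks of every list was set by the way they were picked.

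Host genes of small nucleolar RNAs, whose introns carry the guides for ribosomal RNA modification, were mostly shared. Of 33 listed, 17 had a lncRNA promoter region, 11 only one shared with a protein-coding start and 5 no peak within 1 kb. Over all 18229 lncRNA genes, 16.6% had a region of their own, 14.5% only a shared one and 68.9% neither. That background applies to the gene lists that follow as well. Of the 17, 15 had their strongest region in all 3 lists, 1 in NTG alone and none in both siINO80 lists and not NTG. Genes were placed here, and in the lists that follow, by their strongest region. Placed in the same way, 48.7% of the 3034 lncRNA genes with a lncRNA promoter region were in all 3 lists, 17.0% in NTG alone and 4.22% in the siINO80 pair without NTG. The median NTG fold enrichment of the hosts was 5.17, against 4.15 over those 3034 genes.

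DANCR, which hosts a small nucleolar RNA and is also studied in stem cells, had a fold enrichment of 10.8 in NTG, 12.8 in siINO80#1 and 8.08 in siINO80#2. The summit held 136 reads (exact Poisson interval 114 to 161), 207 (180 to 237) and 114 (94.0 to 137). Scaled for the estimated read number of each list, the reads were 136, 145 and 79.4. DANCR ranked at the 98.3, 99.5 and 95.8 percentile, so it was near the top under each siRNA, with 3 GC boxes in the sequence shown. SNHG8 stood at 6.37, 8.27 and 7.51 and EPB41L4A-AS1 at 8.54, 9.27 and 8.56, and neither ranked lower with an INO80 siRNA than with NTG. Their scaled reads were 93.0, 85.5 and 72.4 for SNHG8 and 62.0, 67.3 and 53.6 for EPB41L4A-AS1. SNHG12 stood at 6.07, 3.59 and 3.15 and went from the 85.2 to the 61.2 and 48.6 percentile. Its summit held 46 reads (33.7 to 61.4), 28 (18.6 to 40.5) and 23 (14.6 to 34.5), or 46.0, 19.6 and 16.0 when scaled. SNHG21 (fold enrichment 9.62, 8.41 and 7.12) and SNHG25 (5.52, 4.83 and 4.02) also ranked lower with both siRNAs than with NTG, by fewer points. Their scaled reads were 62.0, 50.5 and 41.8 for SNHG21 and 61.0, 46.25 and 36.9 for SNHG25. The leading hosts thus did not move one way in rank.

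Of 15 entries in a list drawn up for abundant nuclear RNAs, 11 had a lncRNA promoter region. Of these, 7 were in all 3 lists, beside 48.7% of all such genes, with a median NTG fold enrichment of 4.37 beside 4.15. For 2 of the 15 entries no lncRNA of that name was found on chromosomes 1 to 22. Abundance and place in the cell were not measured, so the name of the list is only a label and need not hold for every entry. DLEU1 and DLEU2 share their strongest region, so the 11 genes rest on 10 regions. The strongest were CASC19 (6.96, 6.89 and 6.27) and the region of DLEU1 and DLEU2 (6.81, 6.93 and 6.27), all between the 89.05 and the 90.87 percentile of their lists. MALAT1, which lies in nuclear speckles, stood at 4.37, 3.45 and 2.64, with 28 reads in NTG (18.6 to 40.5), 29 in siINO80#1 (19.4 to 41.6) and 21 in siINO80#2 (13.0 to 32.1). Its percentile was 69.7, 58.1 and 25.7. The read intervals overlap but are unscaled. Scaled for the estimated read number of each list, the reads were 28.0, 20.3 and 14.6. The summit lies 2 bp after the start and the sequence shown holds 4 GC boxes. Scaled in the same way, CASC19 held 78.0, 54.7 and 46.0 reads and NORAD 31.0, 22.4 and 20.9. Lower scaled reads were thus not particular to MALAT1. NEAT1, the scaffold of paraspeckles, had a peak of 2.31 in NTG and 2.47 in siINO80#1 and none in siINO80#2. NORAD, which binds Pumilio proteins and guards genome stability, stood at 3.89, 2.99 and 2.82. MALAT1 and NORAD ranked lower with both siRNAs than with NTG, whereas NEAT1 ranked higher in siINO80#1.

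The list drawn up for imprinted loci, which are expressed from 1 parental allele, names 14 genes, GNAS-AS1 under 2 names. Imprinting was not measured, and the entry ZNFX1-AS1 is ZFAS1, which is also listed as a small nucleolar RNA host. Of the 14 genes, 2 had a lncRNA promoter region, 3 only a shared one, ZFAS1 among them, and 9 none within 1 kb, including H19 and MEG3. Over all lncRNA genes 16.6% had a region of their own and 31.1% had any, so these counts are near the background. KCNQ1OT1, which silences its neighbours in cis, stood at 5.34, 4.39 and 3.49 (79.6, 73.2 and 59.3 percentile) in an intron of KCNQ1. MEG8 had a weak peak of 2.60 with 12 reads in NTG alone, 351 bp upstream of its start. That was the lowest read number at any lncRNA promoter of the NTG list.

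Of 39 lncRNAs linked to liver or liver cancer, 19 had a lncRNA promoter region, 10 of them in all 3 lists and 2 in NTG alone (beside 48.7% and 17.0% of all such genes), and 14 had no peak within 1 kb, HOTAIR, UCA1 and CRNDE among these. Their median NTG fold enrichment was 4.92. LUCAT1, a stress-induced lncRNA, stood at 9.26, 10.5 and 8.16, with 70, 105 and 80 reads at a summit 4 bp from its start. When scaled, these reads were 70.0, 73.6 and 55.7. CPS1-IT1, within the urea cycle gene CPS1, stood at 8.64, 6.97 and 6.23. LUCAT1 ranked at the 96.4, 98.2 and 96.0 percentile, and CPS1-IT1 at the 95.2, 91.0 and 89.7 percentile, so both stayed high in every list.

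Several liver lncRNAs were not shared by every list. HULC, first described in liver cancer, has several annotated starts. Its strongest region, chr6:8904797-8905410, stood at 6.77 in NTG and 4.77 in siINO80#1 (35 and 30 reads, 35.0 and 21.0 when scaled) with no peak in siINO80#2. The summit of that region lay 1098 bp upstream of the nearest start, so only its edge reached the window. Of the 6 regions of HULC, 2 were in all 3 lists, 2 in NTG with siINO80#1, 1 in NTG alone and 1 in siINO80#1 alone. The strongest regions of LINC02532 (5.08 and 2.60) and LINC01116 (4.88 and 4.11) also had peaks in NTG and siINO80#1 only. All 3 of these strongest regions lacked a peak in the shortest list. FAM99B, a liver-enriched lncRNA, had one in siINO80#1 alone (3.42, 21 reads), and LINC01018 had one in siINO80#2 alone (2.92, 20 reads), 42 bp upstream of the start.

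Genes with many starts showed how far regions of 1 locus can differ. LINC00511 named 16 regions, the most of any gene, and 12 of them were in all 3 lists. The strongest stood at 7.75 in NTG, 7.40 in siINO80#1 and 8.29 in siINO80#2, and it holds an AP-1 motif. CASC15 named 9 regions, of which 1 was in all 3 lists, 1 in NTG alone, 3 in siINO80#1 alone, 2 in siINO80#2 alone and 2 in both siINO80 lists and not NTG. Its single shared region was strong in NTG at 10.6 and stood at 5.17 and 4.51 with the siRNAs, from the 98.2 to the 80.6 and 75.9 percentile. SLC8A1-AS1 named 10 regions with 2 in all 3 lists. Regions of 1 gene share its locus and are not independent.

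Of 28 host genes of microRNAs listed, 17 had a lncRNA promoter region, of which 12 were in all 3 lists and 4 in NTG alone, beside 48.7% and 17.0% of all such genes. The median NTG fold enrichment was 5.81, against 4.15. MIR22HG had a peak in NTG (3.12) and siINO80#1 (1.98) but none in siINO80#2. The summit of that region lay 1147 bp downstream of the nearest start, and the region was 1131 bp from the start of protein-coding WDR81. Its siINO80#1 peak was at the 0.62 percentile of the list. The strongest region of MIR4458HG stood at 8.86, 11.5 and 10.0, but its summit is nearest to the start of another lncRNA, ENSG00000249159, 13 bp away. MIR3142HG, which hosts miR-146a, stood at 9.92, 9.83 and 5.99. MIR31HG stood at 8.92, 4.87 and 3.95, and its summit lay 1287 bp upstream of the nearest start. The 4 in NTG alone were MIR34AHG (2.63), MIR194-2HG (2.70), MIR646HG (2.80) and MIR4435-2HG (2.90). The summit of MIR4435-2HG lay 1014 bp upstream of the nearest start. MIR34AHG, the host of the p53 target miR-34a, had its summit 1 bp upstream of the start in a sequence of 74.0% GC, and held 20 reads. The NTG-alone hosts all stood low, between the 13.7 and the 30.0 percentile of the NTG list.

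Of 25 entries for cell cycle, stress and p53 lncRNAs, 10 had a lncRNA promoter region, 7 in all 3 lists and 1 in NTG alone (beside 48.7% and 17.0% of all such genes), with a median NTG fold enrichment of 4.02. PURPL is listed under an older name as well and counted once per name. CDKN2B-AS1, at the INK4 locus, stood at 5.89, 7.57 and 5.49, and LINC-PINT, a p53-induced lncRNA, at 4.15, 4.55 and 4.10. Neither had a lower percentile with an INO80 siRNA. LINC01135, whose start lies beside JUN with a gap of 1081 bp, had weak peaks of 2.08 in NTG and 2.36 in siINO80#2. None of the listed genes with a lncRNA promoter region of its own had its strongest one in the siINO80 pair without NTG, whereas SNHG1, at a promoter shared with a protein-coding start, did.

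**Figure D5:**
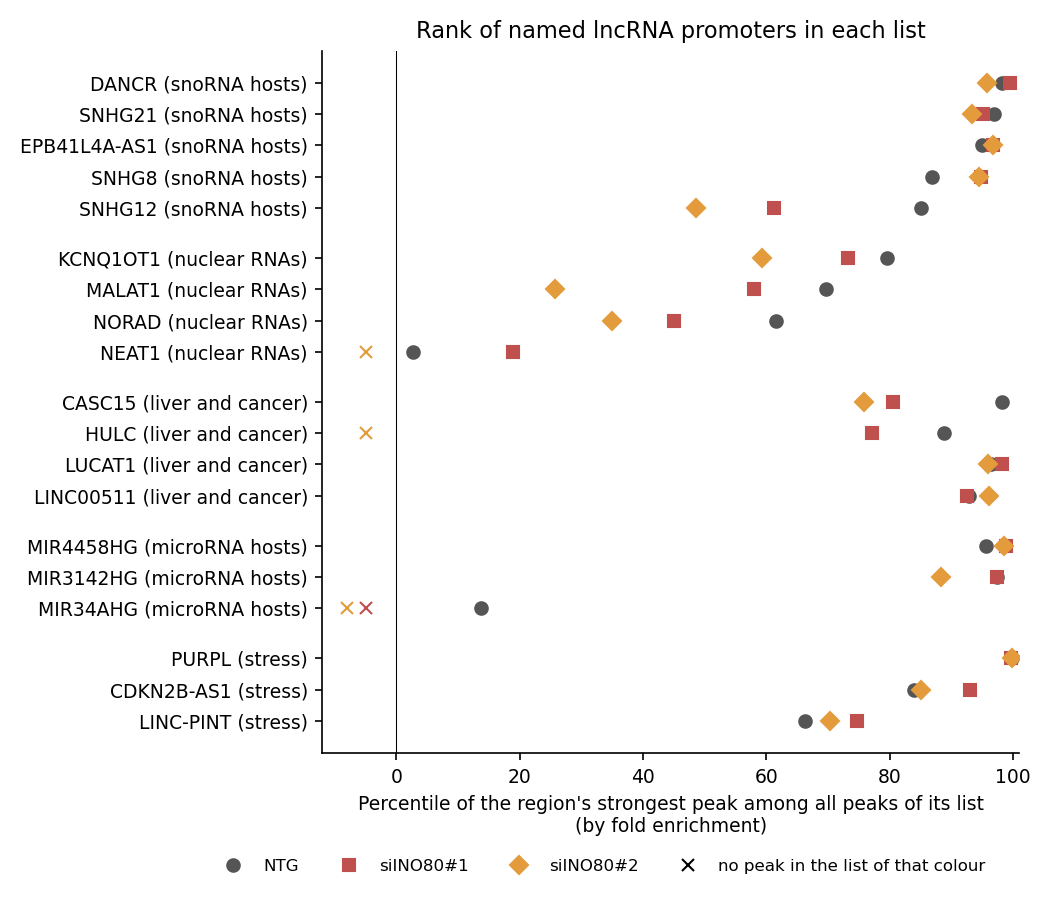
Percentile of the strongest peak of named lncRNA promoters among all peaks of its list (x axis), for NTG (grey circles), siINO80#1 (red squares) and siINO80#2 (orange diamonds); crosses left of 0 mark lists without a peak. PURPL, LUCAT1 and DANCR sit at the right in every list, whereas MALAT1 runs from 69.7 to 58.1 and 25.7 and MIR34AHG has a point in NTG alone. The region labelled MIR4458HG has its summit nearest to the start of ENSG00000249159. Names in brackets are labels of the gene lists.

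The strongest regions of the remaining classes were mostly lncRNAs known by an identifier only. In NTG alone FAM27C stood at 17.4, but its sequence has 15 places in the genome, and ENSG00000291270 (6.98) has 3. With a single place, ENSG00000249061 stood at 7.47 (35 reads), ENSG00000260971 at 7.06 (33 reads) and ENSG00000287176 at 6.64 (31 reads). Those 3 peaks ranked between the 88.3 and the 91.9 percentile of NTG, where most lncRNA promoters were found again. In siINO80#1 alone the strongest were SDHAP1 (6.17, 3 places) and ENSG00000253939 (6.15), and in siINO80#2 alone LINC02449 (4.96, 9 places) and CFTR-AS1 (4.26).

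In both siINO80 lists and not NTG, LINC00923 stood at 6.37 in siINO80#1 and 5.81 in siINO80#2, with 49 and 46 reads. POT1-AS1, named as antisense to the telomere gene POT1 and 62736 bp from its start, stood at 5.361 and 5.998, with 32 and 37 reads and a summit 26 bp upstream of the start. ENSG00000261729 stood at 5.52 and 4.91, ENSG00000286339 at 5.04 and 5.87, ENSG00000273464 at 4.99 and 5.84 and ENSG00000291175 at 4.55 and 5.05. Each of these 6 had a single place in the genome and ranked between the 74.8 and the 88.5 percentile of its list. The widest lncRNA promoters were in all 3 lists. They were ENSG00000261012 (3565 bp), LINC03037 (3525 bp) and ENSG00000286527 (3243 bp). The summit of ENSG00000261012 lay 2270 bp downstream of the nearest start.

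Motifs at the summits were counted in the 200 bp around the strongest summit, on both strands and by exact match. The AP-1 motif was found at 462 lncRNA promoters (12.9%, against 11.8% of all regions). It was found at 49 of the 163 in both siINO80 lists and not NTG (30.1%, 23.6 to 37.5), at 224 of 1460 in all 3 lists (15.3%) and at 46 of 688 in NTG alone (6.69%, 5.05 to 8.80). The same shares over all regions were 31.9%, 16.9% and 5.14%, so lncRNA promoters were near the background of their class. In protein-coding promoters in both siINO80 lists and not NTG it was 21.9%.

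The FOXA motif TGTTTAC, of the liver pioneer factors, was found at 152 lncRNA promoters (4.26%, against 4.95% of all regions). In both siINO80 lists and not NTG it was at 17 of 163 (10.4%, 6.61 to 16.1), against 7.26% of all regions of that class, an interval that includes it. The GC box GGGCGG was found at 16.7% of lncRNA promoters, 43.8% of protein-coding promoters and 10.4% of all regions. Among lncRNA promoters it was at 26.2% of those in all 3 lists and 9.88% of those in NTG alone. The ETS motif CCGGAAG, common at housekeeping promoters, was at 3.17% of lncRNA promoters and 9.98% of protein-coding promoters.

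The remaining motifs were rare. NRF1 (GCATGCGC) and HNF4A (CAAAGTCCA) were each at 34 lncRNA promoters (0.95%, against 0.53% and 0.79% of all regions), YY1 (AAGATGGC), whose factor is a subunit of the INO80 complex, at 38 (1.06%, against 1.21%), and CRE (TGACGTCA) at 19 (0.53%, against 0.33%). A CRE was found at 0 of 688 in NTG alone, which allows a share of up to 0.436%, and at 0 of 163 in both siINO80 lists and not NTG, which allows up to 1.84%. A match is only a match of letters, and binding was not measured.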

How the data were processed

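ATAC-seq was done by the authors in 9 HepG2 samples, 3 replicates for each of NTG, siINO80#1 and siINO80#2, grouped here by sample title. The submitters' processing notes name Trim Galore 0.4.1, Bowtie2, SAMtools, MACS2 and deepTools 2.2.4 and the build hg19, without parameters; the handling of the transposase offset is not given in the sources used here. The authors deposited 1 peak list per siRNA, with the replicates called together. Peak numbers were skipped in each list, so the authors had filtered it after calling, by a criterion not given. Each deposited peak has a fold enrichment (a ratio to the local background of the same list, with no input library), a −log10 p and a −log10 q, and a score, which is 10 times the −log10 q. Fold enrichments serve as ranks within a list and are not signal that can be set against another list.

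Here, intervals with several summits were counted once, and the lists were merged from 1 bp of overlap. Transcript starts came from GENCODE 44 lifted to GRCh37. A region was represented by its strongest peak (highest percentile within a list) and named after the lncRNA start nearest to that summit. Kinds were compared by shares with Wilson intervals and differences with Newcombe intervals, and no p-value is given. Reads at summits were solved from fold enrichment and −log10 p. Places in the genome were counted with blastn 2.17.0 at 95% identity over 90% of the 200 bp. Merging, kinds and intervals were tested on 1500 simulated intervals and recovered in 100% of cases. Python 3.11.15, pandas 2.3.3, scipy 1.17.1, pysam 0.24.0 and bedtools 2.31.1 were used.

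Named regions were, in each gene list, up to 6 genes of highest NTG fold enrichment and up to 6 not in all 3 lists; the 6 strongest in all 3 lists and the 6 strongest in both siINO80 lists and not NTG; the 5 strongest in NTG alone; the 2 strongest in each siINO80 list alone; and the 3 widest. A region that this rule names is not reported here. Genes with many regions were named after their counts were seen. The rule for lncRNA promoters, the gene lists and the motifs were chosen with earlier results of these data known.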

Additional observations from a re-analysis of the deposited data

Results flagged for a closer look

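Of 7 summaries of the lncRNA promoters in each list, 1 moved in opposite directions with the 2 siRNAs. The share of a list's regions that were lncRNA promoters was 3.79% in NTG, 3.73% in siINO80#1 and 3.93% in siINO80#2, which is −0.0658 percentage points for siINO80#1 minus NTG and 0.141 points for siINO80#2 minus NTG. The difference between the siRNAs was not tested, since each has 1 list. The siINO80#2 list is also the shortest. With the lists taken at equal size, chosen after seeing the data, the shares were 4.003% in NTG, 3.967% in siINO80#1 and 3.925% in siINO80#2, so that both siRNAs stood below NTG and the directions were no longer opposite.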

How the results depend on the processing

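With 1 list per siRNA no replicate could be left out, and the run of that alternative was not possible. No paired analysis was possible because the lists carry no replicate letters. The number of lncRNA promoters was 1844 at a −log10 q of at least 5 and stayed within 1.5 times of 3569 in the other alternatives. The share in all 3 lists was 51.3% at that q, 44.3% at equal list size, 45.0% with peaks within 500 bp merged, 45.9% with a start window of 500 bp and 35.0% with a window of 2.5 kb. The share in NTG alone was 13.7%, 14.6%, 17.7%, 17.7% and 21.3% in that order. The share in both siINO80 lists and not NTG was 6.51% at that q and 6.05% at equal list size, against 7.49% and 6.64% of all regions. Of NTG regions, 79.3%, 73.1%, 72.4%, 72.7% and 63.9% had a siINO80#1 peak in the same order, and 59.9% when at least 50% of the NTG peak had to be covered. For siINO80#2 these were 68.3%, 69.7%, 64.0%, 64.9%, 56.4% and 49.3%. Among all regions, 43.8% were in all 3 lists at that q, 30.05% at equal list size and 29.4% with peaks within 500 bp merged. For NTG alone these were 15.8%, 19.5% and 22.9%. Of all NTG regions, 75.3%, 60.7% and 59.4% had a siINO80#1 peak, and 62.7%, 57.15% and 50.75% a siINO80#2 peak. In these shares lncRNA promoters stood nearer to all regions at that q than in the main setting. The cause of these shifts was not tested. At equal list size the 2 siRNAs thus differed less, by 73.1% against 69.7%, than with the lists as deposited. Shares by the position of the strongest summit, by transcripts tagged basic, and, chosen after seeing the data, without repeated sequence or without chromosome 2 stayed within the Wilson interval of the main value. At equal list size the share of a list's regions that were lncRNA promoters, siINO80#2 minus NTG, reversed from 0.141 to −0.0776 percentage points, and siINO80#1 minus NTG went from −0.0658 to −0.0356. The lowest summits at lncRNA promoters held 12 to 15 reads in the 3 lists.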
